A study of Mus musculus with 23 samples.

Results

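The genes described here encode the kinases, motors, kinetochore proteins and checkpoint proteins that carry a cell through mitosis, together with the proliferation markers Mki67 and Top2a. They form a fixed list of 50 gene symbols, which was chosen with earlier results of these data known. Of these, 49 were measured by a probe set that carried a single symbol, among 19938 symbols on the array. Ccnb1 had no such probe set and has no value here. All 49 also passed the filter on low values, which left 15542 genes for the tests.

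The samples were marrow cells of 23 mice, with 1 array each, and every mouse had received a single dose of 2 Gy at the age of 2 months. Leukemic marrow came from 10 mice with 1 intact copy of Pax5 (Pax5+/-, samples 1 to 10) and from 3 wild-type mice (WT, samples 14, 15 and 17). At 3 weeks after the dose, precursors labelled as pro-B and pre-B, here called preleukemic, came from 7 Pax5+/- mice (samples 11 to 13 and 21 to 24) and 3 WT mice (samples 18 to 20). WT leukemia 16 was not analysed here. Pax5 encodes the factor that fixes B cell identity in early progenitors, and pro-B cells come before pre-B cells in the marrow. The titles name pro-B cells alone for the leukemias, and neither a sort nor the time from the dose to leukemia is given. Leukemia can therefore not be told apart from precursor stage, age or time after the dose.

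Entry into mitosis is driven by CDK1 bound to cyclin B, which CDC25 phosphatases switch on by removing inhibitory phosphates. Aurora and Polo-like kinases build the spindle, kinetochores attach chromosomes to it, and the spindle checkpoint holds back the anaphase-promoting complex until every chromosome is attached. Separase then cuts cohesin, and the central spindle and a contractile ring divide the cell. Most of these genes are transcribed mainly in G2 and M phase. B cell precursors are known to divide in bursts between steps of receptor gene rearrangement. In a bulk sample, fewer cells of a type and less RNA per cell cannot be told apart.

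Markers of B cell precursors were present throughout. Of 9 measured, 9 lay above the array median in every sample of 3 groups and 8 in every WT leukemia. The preleukemic and leukemic samples differed in markers of other cells. The mean level of 4 megakaryocyte markers was 6.21 to 6.46 on the log2 scale in Pax5+/- preleukemic samples and 8.39 to 11.25 in Pax5+/- leukemias. For 11 monocyte and macrophage markers it was 6.42 to 6.67 and 7.49 to 9.88, and for 12 neutrophil markers 6.11 to 6.7 and 6.14 to 10.82. For 10 stroma and endothelium markers it was 6.59 to 6.78 and 7.6 to 8.95, and for 7 T cell markers 5.83 to 5.95 and 5.98 to 7.71. Erythroid means were 6.61 to 7.12 and 6.24 to 6.67, plasma cell means 7.69 to 7.79 and 7.9 to 8.6, natural killer means 5.89 to 7.69 and 6.28 to 7.12, and B precursor means 11.94 to 12.2 and 10.43 to 11.45. WT preleukemic sample 20 stood apart from samples 18 and 19, with a neutrophil mean of 10.61 against 6.38 and 6.42 and an erythroid mean of 8.14 against 6.72 and 6.75. Its B precursor mean was 11.94, within the range of the Pax5+/- preleukemic samples. WT leukemias 15 and 17 had erythroid means of 9.01 and 9.14, against 6.66 in leukemia 14, and leukemia 15 had a natural killer cell mean of 9.81. Xist exceeded the Y-linked gene Eif2s3y in 3 of 3 WT leukemias and 0 of 3 WT preleukemic samples, so sex and stage coincide in WT, while in Pax5+/- mice it did so in 5 of 10 leukemias and 3 of 7 preleukemic samples.

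Many of these genes share letters near their transcription start. The cell cycle homology region (CHR), bound by complexes that repress or activate late cell cycle genes, is written here as TTTGAA or TTCAAA, with TTCGAA as a variant, and the CCAAT box, bound by NF-Y, as CCAAT or ATTGG. These spellings cover both strands, and a CHR match can share a base with a CCAAT match where they adjoin. RefSeq promoter windows (GRCm38.p6, 250 bases before to 50 after the start) were found for 41 of the 50 genes, in 44 windows, since 3 genes (Ect2, Prc1 and Bub3) have 2 overlapping windows each. CHR letters stood in 35 of the 44 windows (79.5%), against 6316 of 32851 windows over all genes (19.2%). CCAAT letters stood in 33 windows (75.0%) against 37.4% over all genes, and both in 30 windows (68.2%) against 7.52%. With a site seen in 2 windows counted once, 30 of 44 CHR matches began within 50 bases of the nearer start of the gene. A match describes letters only. The 140 bases from 120 before to 20 after the start are shown for 5 genes that rose in leukemia and carry both motifs, for Cdc25b, which fell and carries both, and for Pttg1, which did not pass the test and has no match. Motif letters are in capitals, and each sequence is given 5′ to 3′ in the direction of transcription.
Cdk1 (chr10:69352893-69353032, minus strand): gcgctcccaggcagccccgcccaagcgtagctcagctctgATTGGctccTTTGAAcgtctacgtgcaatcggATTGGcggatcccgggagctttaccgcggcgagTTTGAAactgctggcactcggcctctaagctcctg
Ccnb2 (chr9:70421535-70421674, minus strand): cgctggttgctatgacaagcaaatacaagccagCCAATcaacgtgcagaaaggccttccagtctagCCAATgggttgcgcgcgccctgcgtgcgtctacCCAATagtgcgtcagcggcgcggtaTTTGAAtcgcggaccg
Top2a (chr11:99024170-99024309, minus strand): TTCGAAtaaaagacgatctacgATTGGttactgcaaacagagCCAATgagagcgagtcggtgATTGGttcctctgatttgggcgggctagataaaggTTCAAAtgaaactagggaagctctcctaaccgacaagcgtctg
Kif11 (chr19:37376262-37376401, plus strand): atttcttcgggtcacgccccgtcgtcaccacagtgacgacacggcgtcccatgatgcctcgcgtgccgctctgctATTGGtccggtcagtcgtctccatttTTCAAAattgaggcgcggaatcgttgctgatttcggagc
Cdc20 (chr4:118437324-118437463, minus strand): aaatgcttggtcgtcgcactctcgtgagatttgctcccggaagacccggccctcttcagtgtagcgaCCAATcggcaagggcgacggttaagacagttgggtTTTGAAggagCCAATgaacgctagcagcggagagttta
Cdc25b (chr2:131186828-131186967, plus strand): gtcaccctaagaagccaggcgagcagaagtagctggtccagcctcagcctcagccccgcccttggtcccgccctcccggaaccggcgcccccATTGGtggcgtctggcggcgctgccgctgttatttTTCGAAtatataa
Pttg1 (chr11:43425962-43426101, minus strand): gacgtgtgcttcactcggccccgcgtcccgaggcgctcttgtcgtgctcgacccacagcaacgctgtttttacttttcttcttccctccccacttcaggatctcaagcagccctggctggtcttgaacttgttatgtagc

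In Pax5+/- mice most of the mitotic genes were higher in leukemia, and 1 was lower. Of 49 genes, 44 rose, 1 fell (Cdc25b) and 4 did not pass (limma, Benjamini-Hochberg adjusted p under 0.05 over all 15542 genes, two-sided, n = 10 and n = 7). The comparison called 64.6% of all genes, 28.0% higher and 36.5% lower. The median difference was 1.16 on the log2 scale, a 2.23-fold rise, against -0.05 over all genes tested. A rise over 2-fold was called for 31 members, against 1068 of 15542 genes. Every leukemia lay above every preleukemic sample for 33 members and below for Cdc25b, while over all genes 11.7% lay above and 10.8% below. Without leukemia 4, 43 members lay above, against 12.8% of all genes. Without WT preleukemic sample 20, which enters this comparison only through the shared estimate of the spread, 46 members rose, against 28.4% of all genes.

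Per sample, the mean over the 49 genes separated the stages in Pax5+/- mice. It ran from 7.8 to 8.29 with a median of 8.04 in the 7 preleukemic samples and from 8.52 to 9.55 with a median of 9.23 in the 10 leukemias. In WT leukemias it was 9.44, 9.3 and 9.12 (samples 14, 15 and 17), and in WT preleukemic samples 7.56, 7.68 and 9.35 (samples 18, 19 and 20). Sample 20 thus lay among the leukemias, and the other WT preleukemic samples lay below every Pax5+/- preleukemic sample.

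**Figure D1:**
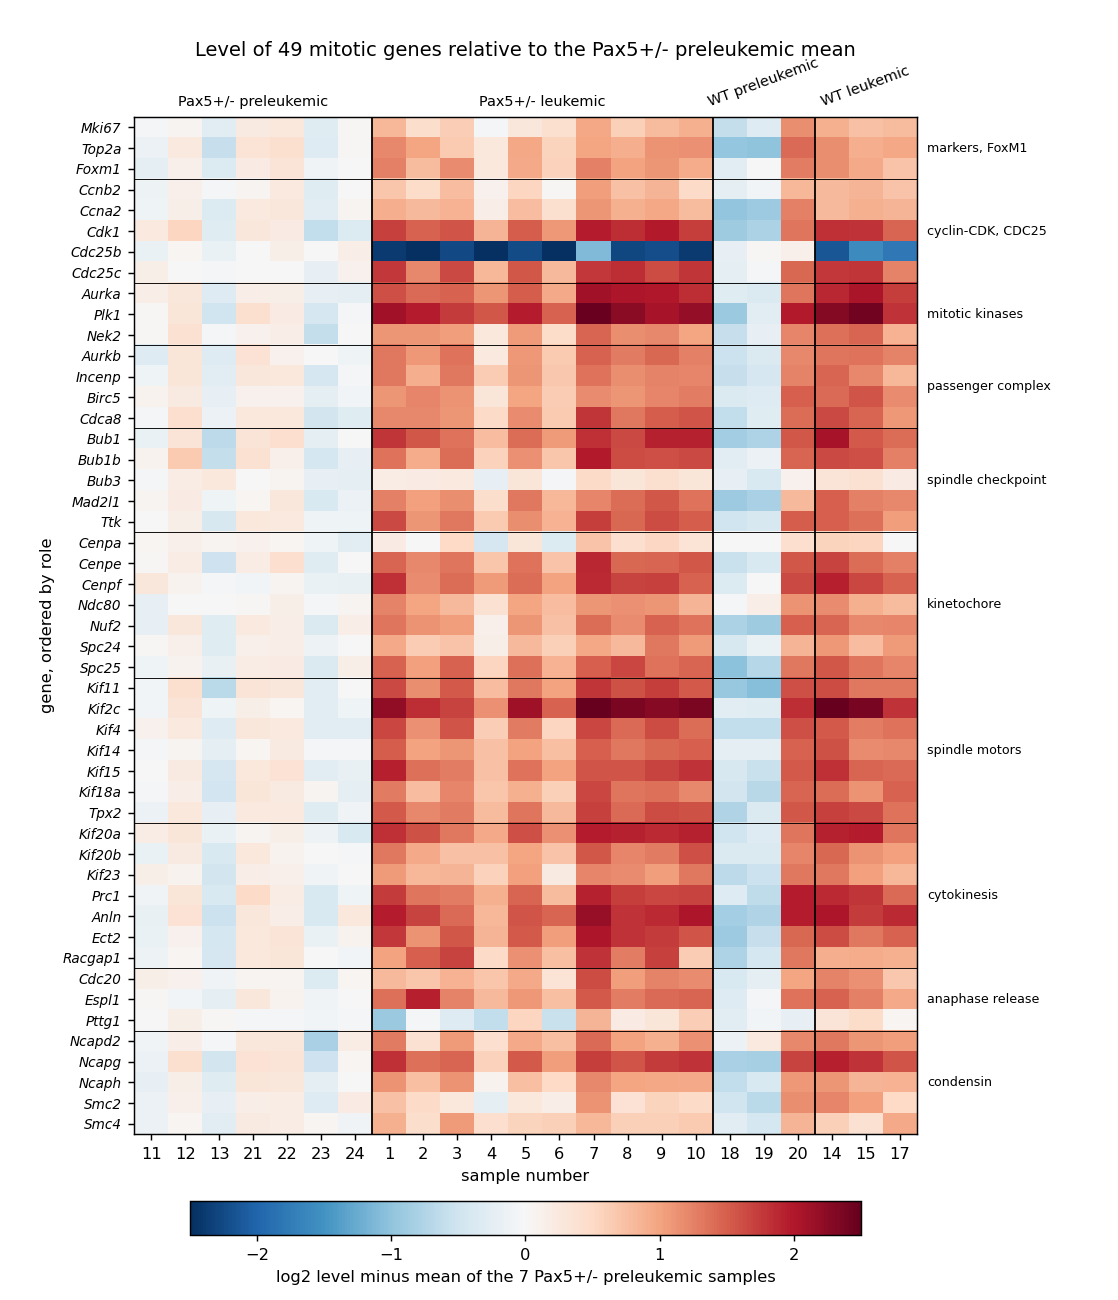
Log2 level of the 49 measured mitotic genes (rows, by role) in 23 samples (columns, by group), minus the mean of the 7 Pax5+/- preleukemic samples; colours saturate at 2.5 in either direction. Leukemias and WT preleukemic sample 20 are red for nearly every gene, Cdc25b is blue in all 13 leukemias and near 0 in sample 20, and Pttg1 is mixed.

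Of the 3 general markers, all rose in Pax5+/- leukemia. Mki67, which coats mitotic chromosomes and is the usual marker of cycling cells, ran from 10.46 to 11.02 (median 10.79) before leukemia and from 10.71 to 11.73 (median 11.37) in leukemia. The groups overlapped through leukemia 4, whose 10.71 lay below 5 of the 7 preleukemic samples. The rise was 1.5-fold (log2 0.58, SE 0.19, adjusted p = 0.00971). Top2a, the topoisomerase that untangles sister chromatids, ran from 9.27 to 10.25 and from 10.1 to 11.04, a rise of 1.84-fold (SE 0.25, adjusted p = 0.0045). Foxm1, a transcription factor of G2 and M phase genes, rose 1.9-fold (SE 0.18, adjusted p = 0.000145). Top2a has a second probe set with group means of 4.19 to 4.39 and Kif14 one of 4.35 to 4.45, both near the lowest values of the arrays, and neither was used.

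Among the cyclin, CDK and phosphatase genes, 4 of 5 rose and 1 fell, and the 2 CDC25 members went opposite ways. Cdk1 ran from 8.81 to 9.95 (median 9.62) before leukemia and from 10.26 to 11.4 (median 11.06) in leukemia, with no overlap and a rise of 2.97-fold (SE 0.25, adjusted p = 1.77e-05). Its partners Ccnb2 and Ccna2 rose 1.49-fold and 1.7-fold. Cdc25c rose 2.8-fold (SE 0.2, adjusted p = 1.66e-06), from a range of 5.64 to 5.98 to one of 6.66 to 7.69. The preleukemic range of Cdc25c lies below the lowest array median of 6.06, so background limits the size of its fold. The Pax5+/- preleukemic ranges of Ttk (5.76 to 6.43) and Kif18a (5.97 to 6.75) also start below that median. Those of Kif4, Prc1, Kif20b, Kif14 and Kif2c start little above it, at 6.18, 6.26, 6.31, 6.35 and 6.4. The same limit may apply to the folds of these genes.

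Cdc25b, the CDC25 phosphatase that acts at the centrosome at mitotic entry, was the 1 member that fell. It ran from 10.45 to 10.79 (median 10.62) in the 7 Pax5+/- preleukemic samples and from 7.6 to 9.53 (median 8.29) in the 10 leukemias. No leukemia reached the preleukemic range, and leukemia 7, with 9.53, was the nearest. The fall was 5.05-fold (log2 -2.34, SE 0.18, adjusted p = 6.92e-10). In WT mice the preleukemic samples 18, 19 and 20 held 10.42, 10.65 and 10.76, and leukemias 14, 15 and 17 held 8.48, 9.03 and 8.83. Again no leukemia overlapped, as for 23.3% of all genes in that direction, and the fall was 3.56-fold (log2 -1.83, SE 0.3, adjusted p = 8.9e-05, n = 3 and n = 3). Without sample 20 the WT difference was -1.76. Cdc25b thus separated the stages in both genotypes, with sample 20 on the preleukemic side.

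The 3 mitotic kinases rose. Plk1, the Polo-like kinase of centrosome maturation and mitotic entry, ran from 8.32 to 9.22 (median 8.86) and from 10.3 to 11.29 (median 10.84), a rise of 3.94-fold (log2 1.98, SE 0.27, adjusted p = 2.8e-06). Aurka, the Aurora kinase of the spindle poles, ran from 7.35 to 7.94 (median 7.81) and from 8.62 to 9.77 (median 9.22), a rise of 3.03-fold (SE 0.2, adjusted p = 1.08e-06). For both, each leukemia lay above each preleukemic sample. Nek2, which splits centrosomes, rose 1.98-fold. Tpx2, which activates Aurora A on spindle microtubules, rose 2.51-fold. The 4 subunits of the chromosomal passenger complex, which corrects faulty attachments and later marks the central spindle, rose by similar amounts, 2.02-fold to 2.3-fold. Its kinase Aurkb ran from 9.11 to 9.81 (median 9.43) and from 9.69 to 10.92 (median 10.72), overlapping through leukemia 4. Birc5, or survivin, ran from 7.04 to 7.52 (median 7.38) and from 7.59 to 8.56 (median 8.41), a rise of 2.02-fold (SE 0.2, adjusted p = 0.000163) with no overlap.

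Of the 5 spindle checkpoint genes, 4 rose. Bub1, a checkpoint kinase at the kinetochore, ran from 7.12 to 8.18 (median 7.77) and from 8.53 to 9.68 (median 9.37), a rise of 2.88-fold (SE 0.27, adjusted p = 5.1e-05). Bub1b and Mad2l1, which encode inhibitors of the anaphase-promoting complex activator CDC20, rose 2.46-fold and 2.23-fold, and Ttk, which encodes the kinase MPS1, rose 2.47-fold. Bub3, the adaptor that carries BUB1 and BUBR1 to kinetochores, did not pass in Pax5+/- mice: it ran from 10.35 to 10.86 and from 10.38 to 11.07, a difference of 0.21 (SE 0.09, adjusted p = 0.0519).

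Of the 7 kinetochore genes, 6 rose, and the centromeric histone did not pass. Cenpa, which encodes the histone H3 variant that marks centromeres, ran from 9.87 to 10.28 (median 10.2) and from 9.74 to 10.87 (median 10.48), a difference of 0.23 (SE 0.14, adjusted p = 0.162). Leukemias 4 and 6 lay below every preleukemic sample and the others spread upward. The genes of the NDC80 complex, which grips microtubule ends, rose 1.91-fold (Ndc80), 2.13-fold (Nuf2), 1.74-fold (Spc24) and 2.42-fold (Spc25). Cenpe, the kinetochore motor, rose 2.48-fold, and Cenpf rose 2.76-fold. Ndc80 ran from 6.49 to 6.84 before leukemia and from 7.07 to 7.94 in leukemia, with no overlap.

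All 7 genes of spindle motors and assembly rose, with a median of 1.33. Kif2c, which encodes MCAK, the kinesin that takes microtubules apart at kinetochores, showed the largest rise of the 49 genes. It ran from 6.4 to 6.99 (median 6.6) and from 7.8 to 9.26 (median 8.82), a rise of 4.01-fold (log2 2.0, SE 0.25, adjusted p = 7.13e-07). Kif11, the motor that pushes the spindle poles apart, ran from 8.02 to 9.11 (median 8.72) and from 9.48 to 10.48 (median 10.24), a rise of 2.66-fold (SE 0.27, adjusted p = 0.000159). For Kif2c and Kif11 no leukemia overlapped the preleukemic samples. Kif15, Kif4, Kif14 and Kif18a rose 2.7-fold, 2.45-fold, 2.27-fold and 2.15-fold.

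All 7 genes of the central spindle and cytokinesis rose, with a median of 1.46. Anln, the scaffold of the contractile ring, ran from 6.54 to 7.45 (median 7.25) and from 7.91 to 9.26 (median 8.84), a rise of 3.2-fold (SE 0.29, adjusted p = 4.31e-05). Kif20a, a kinesin of the central spindle, ran from 7.29 to 7.97 (median 7.74) and from 8.62 to 9.64 (median 9.39), a rise of 3.05-fold (SE 0.21, adjusted p = 1.41e-06). Neither overlapped. Ect2, which activates RhoA at the cell equator, rose 2.83-fold, Prc1, which bundles antiparallel microtubules, 2.74-fold, and Racgap1, a subunit of centralspindlin, 2.29-fold. Kif20b rose 2.16-fold and Kif23, the other centralspindlin subunit, 1.91-fold.

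The 3 genes of anaphase release split. Cdc20, the activator of the anaphase-promoting complex, ran from 7.4 to 7.89 (median 7.81) and from 8.08 to 9.37 (median 8.65), a rise of 1.92-fold (SE 0.17, adjusted p = 9.47e-05). Espl1, separase, rose 2.44-fold (SE 0.19, adjusted p = 5.56e-06). Pttg1, or securin, which holds separase inactive, ran from 9.04 to 9.27 (median 9.09) before leukemia and from 8.19 to 9.96 (median 9.19) in leukemia. The leukemias lay on both sides of the preleukemic samples, 5 above all of them and 4 below all of them, with leukemia 2, at 9.07, inside their range. The difference was 0.00 (SE 0.2, adjusted p = 0.991). In condensin, the complex that compacts chromosomes, 4 of 5 genes rose: Ncapg 2.77-fold, Ncapd2 1.9-fold, Ncaph 1.8-fold and Smc4 1.58-fold. Ncapd2 ran from 8.17 to 9.27 (median 9.16) and from 9.36 to 10.4 (median 9.96). Smc2, the ATPase partner of SMC4, ran from 7.32 to 7.84 and from 7.4 to 8.77, a difference of 0.42 that did not pass (SE 0.21, adjusted p = 0.0835).

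The megakaryocyte, monocyte, stroma, T cell and plasma cell marker means were higher in Pax5+/- leukemia too, without overlap between the stages. With the first principal component of 64 non-B marker genes as a covariate, 0 mitotic genes were called higher and 1, Cdc25b, lower, and the median was 0.6. The same fit called 10.2% of all genes higher and 7.16% lower. Because the marker means named above separate the stages, this fit cannot tell a stage difference apart from the other cells. The part of the other cells in the rise was not tested. Leukemia 7 carried the highest mean of the mitotic genes, 9.55, with a neutrophil mean of 6.35, inside the preleukemic range of 6.11 to 6.7, and an erythroid mean of 6.24, below the preleukemic range of that list. Its megakaryocyte, monocyte and stroma means, 9.04, 7.99 and 8.21, lay above every preleukemic sample. There 48 members lay above all 7 preleukemic samples and Cdc25b below, against 31.5% and 28.6% of all genes. Leukemia 9 had the lowest megakaryocyte, monocyte and stroma means of the 10 (8.39, 7.49 and 7.6), which still lay above the highest preleukemic means of 6.46, 6.67 and 6.78, and 48 members there also lay above all 7, against 31.9% of all genes.

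**Figure D2:**
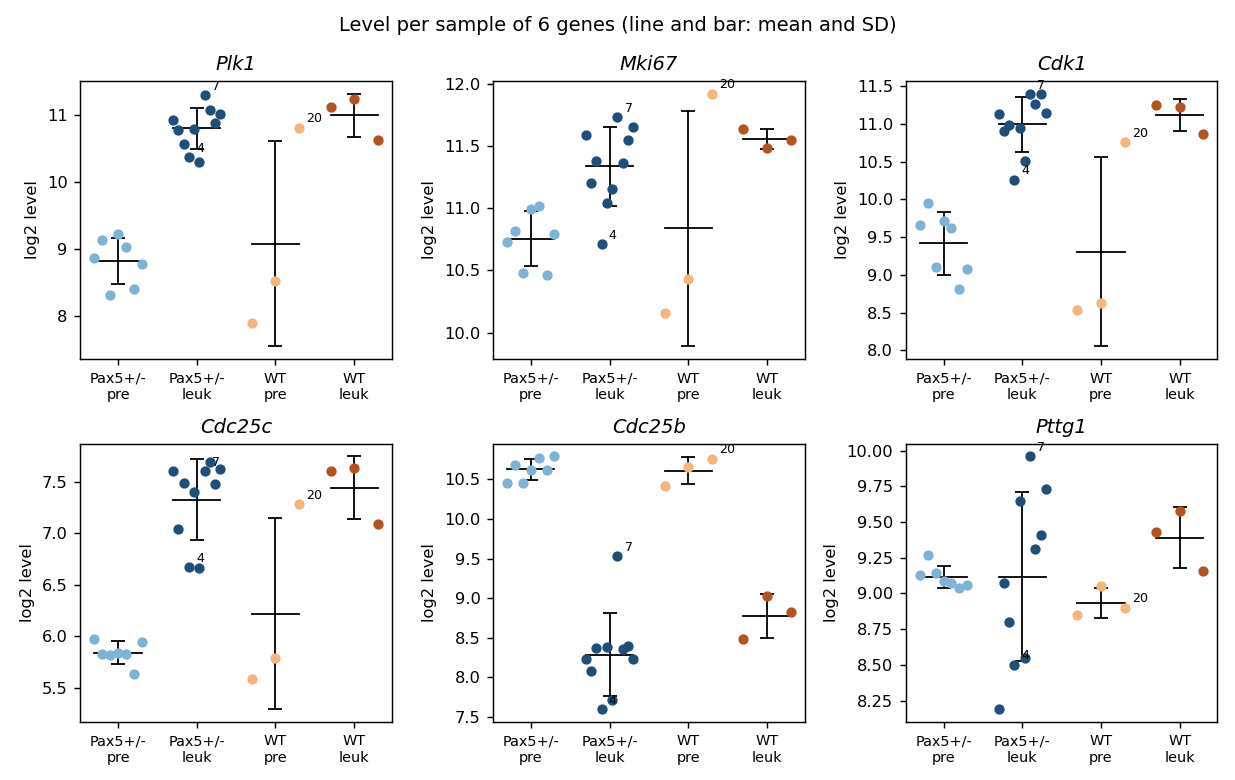
Log2 level per sample (points) with the group mean and SD for 6 genes in the 4 groups, with samples 4, 7 and 20 numbered where present. Plk1, Mki67, Cdk1 and Cdc25c are higher in leukemia and in WT preleukemic sample 20, Cdc25b is lower in leukemia in both genotypes, and the Pax5+/- leukemias spread from 8.19 to 9.96 for Pttg1.

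In WT mice most of the mitotic genes were also higher in leukemia. Of 49, 41 rose, 1 fell (Cdc25b) and 7 did not pass (limma, n = 3 and n = 3), where the comparison called 37.2% of all genes, 17.9% higher and 19.3% lower. The median difference was 1.18, against -0.06 over all genes. Of the members, 39 rose in both genotypes, 5 in Pax5+/- alone and 2, Bub3 (1.38-fold) and Smc2 (1.88-fold), in WT alone, which does not show that the genotypes differ. The 7 that did not pass were Mki67, Foxm1, Cenpa, Ndc80, Pttg1, Ncapd2 and Racgap1, with differences of 0.22 to 0.87. Cenpa and Pttg1 did not pass in either genotype. Markers of other cells moved with the stage in WT too. Megakaryocyte means were 6.36 to 6.51 before leukemia and 9.9 to 10.54 in leukemia, monocyte means 6.62 to 7.44 and 8.72 to 8.89, stroma means 6.67 to 6.76 and 8.37 to 8.52, and plasma cell means 7.43 to 7.73 and 8.12 to 8.65. B precursor means were lower in leukemia, at 9.4 to 10.99 against 11.94 to 12.19. The neutrophil, erythroid, T cell and natural killer means overlapped between the stages, with sample 20 highest of the preleukemic samples in each.

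The WT count turned on single samples. Sample 20 exceeded samples 18 and 19 for 48 of 49 members, all but Pttg1, against 29.2% of all genes, and its median excess over their mean was 1.76. For 41 of the 48 members other than Cdc25b it was at or above the lowest WT leukemia, against 66.9% of all genes. For 46 members it was above all 7 Pax5+/- preleukemic samples, against 20.4% of all genes. Every WT leukemia thus lay above every WT preleukemic sample for 7 members only, against 21.1% of all genes. Without sample 20 this held for 47 members, against 28.2% of all genes, and only Cenpa overlapped. The limma fit without sample 20 called 46 members higher, with a median of 1.75, and 18.9% of all genes higher. It called 9 members higher without sample 18 (against 12.1% of all genes), 13 without sample 19 (12.8%) and 20 without leukemia 14 (13.5%). Without leukemia 15 it called 28 higher (against 14.4% of all genes), and without leukemia 17 it called 36 (16.5%). Without samples 15, 17 and 20 together, which left leukemia 14 alone against samples 18 and 19, the median difference was 1.93.

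The values per sample show the split. Plk1 held 7.9, 8.53 and 10.81 in samples 18, 19 and 20 and 11.12, 11.23 and 10.62 in leukemias 14, 15 and 17. Its rise was 3.76-fold (SE 0.45, adjusted p = 0.00258), and 6.84-fold without sample 20 (SE 0.29, adjusted p = 4.88e-07). Mki67 held 10.16, 10.43 and 11.92 and then 11.64, 11.48 and 11.55, so that sample 20 lay above all 3 WT leukemias. Its difference of 0.72 did not pass (adjusted p = 0.0688), and without sample 20 it was 1.26 (adjusted p = 0.000227). Top2a held 8.87, 8.84 and 11.26 and then 11.01, 10.75 and 10.81, which again placed sample 20 highest. Cdk1 held 8.54, 8.63 and 10.76 and then 11.25, 11.22 and 10.87, with sample 20 just below the leukemias.

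The same order recurred across roles. Aurka held 7.36, 7.31 and 9.01 in samples 18, 19 and 20 and 9.55, 9.71 and 9.4 in leukemias 14, 15 and 17. Aurkb held 8.91, 9.08 and 10.64 and then 10.77, 10.79 and 10.68. Bub1 held 6.89, 7.0 and 9.32 and then 9.82, 9.29 and 9.17, so sample 20 exceeded 2 of the 3 leukemias. Kif11 held 7.76, 7.63 and 10.32 and then 10.34, 10.02 and 10.02. Kif2c held 6.4, 6.35 and 8.5 and then 9.19, 9.03 and 8.46. For each of these 5 genes sample 20 lay nearer to the leukemias than to samples 18 and 19. Birc5 held 6.93, 6.97 and 8.79 and then 8.7, 8.86 and 8.47, and Cdc20 held 7.36, 7.53 and 8.74 and then 8.99, 8.89 and 8.43.

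The members that did not pass in WT fell into 2 kinds. For Ndc80, with 6.66, 6.87 and 7.82 in samples 18, 19 and 20 and 7.88, 7.59 and 7.49 in leukemia, the difference of 0.54 (adjusted p = 0.0584) became 0.89 without sample 20 (adjusted p = 0.000661). Ncapd2, Racgap1 and Foxm1 likewise passed without it, at 1.11, 1.51 and 1.08. Cenpa, with 10.17, 10.15 and 10.58 and then 10.71, 10.69 and 10.17, and Pttg1, with 8.85, 9.05 and 8.9 and then 9.43, 9.58 and 9.16, did not (adjusted p = 0.254 and 0.339). For Pttg1 the 3 leukemias lay above the 3 preleukemic samples, and sample 20 stood between samples 18 and 19.

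Besides the neutrophil and erythroid markers, other lists were higher in sample 20. Its plasma cell mean was 7.73, against 7.52 and 7.43 in samples 18 and 19. Its natural killer mean was 9.11, against 7.05 and 7.99 in samples 18 and 19, its monocyte mean 7.44, against 6.62 and 6.67, and its T cell mean 6.94, against 5.97 and 6.12. Its megakaryocyte and stroma means, 6.36 and 6.67, were the lowest of the 3 samples or level with the lowest. The part of these cells in its level was not tested. With the marker component as a covariate 0 WT members were called, against 11.0% of all genes, and the median was 0.6. Megakaryocyte, monocyte, stroma and plasma cell means separate the WT stages too, so this fit has the same limit as in Pax5+/- mice. Fitted on the WT samples alone, 2 members were called higher and 1 lower, against 12.9% and 9.89% of all genes. With Xist as a covariate 25 were called higher, against 15.7%.

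**Figure D3:**
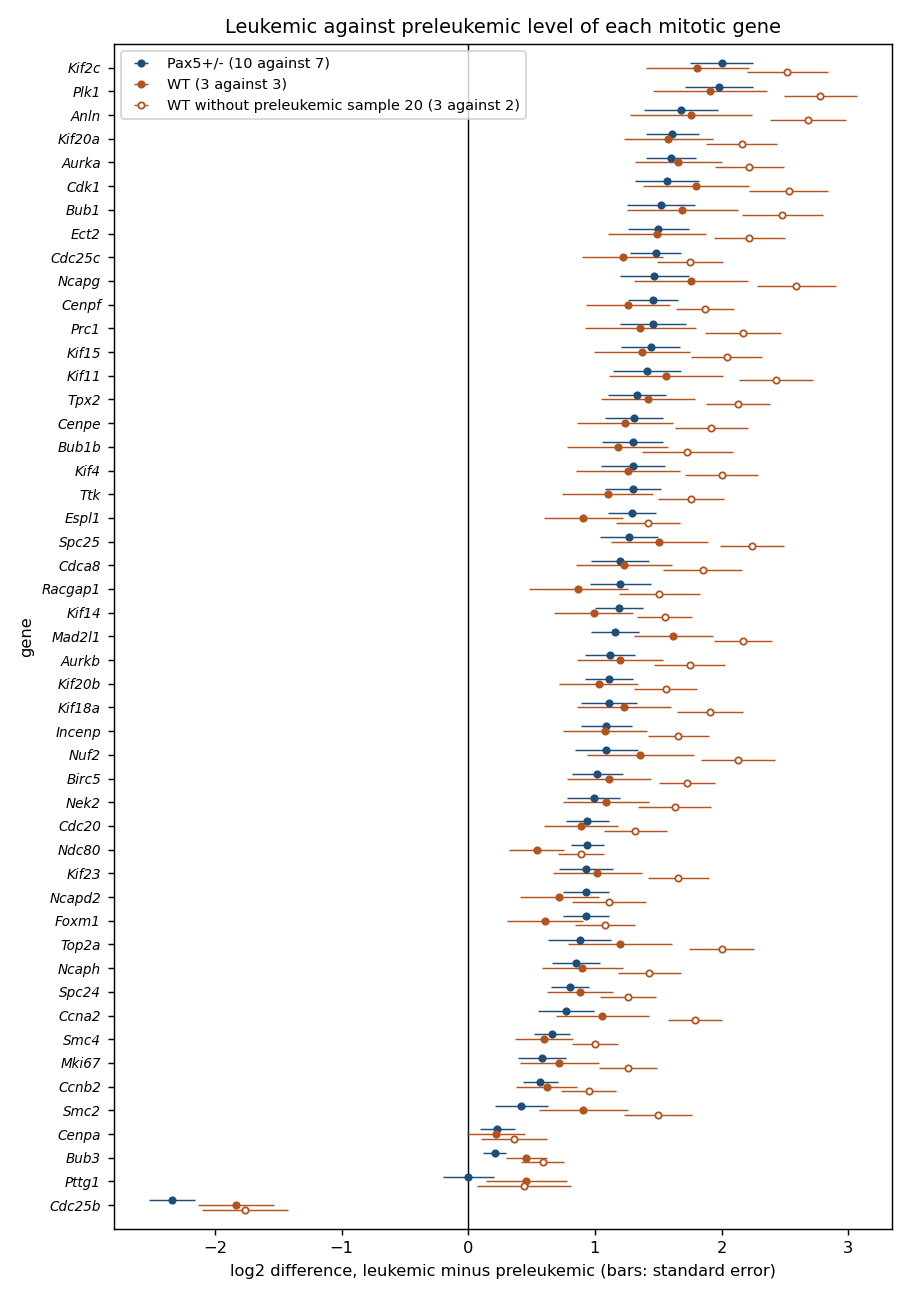
Log2 difference between leukemic and preleukemic samples with its standard error for each of the 49 genes, in Pax5+/- mice, in WT mice and in WT mice without preleukemic sample 20. All but Cdc25b lie at or above 0, and the WT differences without sample 20 exceed those with it for most genes, up to 2.78 for Plk1.

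The genotypes were compared at each stage to ask whether loss of 1 copy of Pax5 went with a different mitotic level. Before leukemia 0 of 49 members passed, where the comparison called 0.624% of all genes. An unadjusted limma p under 0.05 was found for 1 member, against 1394 of 15542 genes. The median difference, Pax5+/- minus WT, was -0.13. The 3 members of smallest p were Ndc80 at -0.42 (SE 0.19, adjusted p = 0.491), Ncapd2 at -0.43 and Cenpf at -0.44. The direction depended on sample 20: without it the median was 0.46, and 2 members, Ccna2 (1.92-fold, SE 0.19, adjusted p = 0.0153) and Top2a (1.98-fold, SE 0.23, adjusted p = 0.0417), were higher in Pax5+/- cells, against 0.315% of all genes. Samples 18 and 19 lay below all 7 Pax5+/- samples for 20 members, among them Mki67, Top2a, Cdk1, Bub1, Aurkb and Kif11, against 5.66% of all genes, and above all 7 for 0, against 7.89%. With all samples the spread of the WT group, a median SD of 1.02 per member against 0.24 in Pax5+/-, exceeded these differences.

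In leukemia 0 of 49 members passed between the genotypes, where 0.341% of all genes were called. An unadjusted limma p under 0.05 was found for 0 members, against 916 of 15542 genes. The median was -0.14. Cdc25b differed by -0.49 (SE 0.24, adjusted p = 0.86), Smc2 by -0.49 (adjusted p = 0.929) and Birc5 by -0.37 (adjusted p = 0.995). The test of whether the stage difference itself differed between genotypes called 0 members and 0.0965% of all genes. At an unadjusted p under 0.05 this test had 0 members, against 1118 of 15542 genes. Its smallest p fell to Ndc80 (0.4, SE 0.26, adjusted p = 0.817), Cdc25b (-0.51) and Bub3 (-0.25). Its median was -0.04, and -0.61 without sample 20, where 0 members passed. These p values do not show that the genotypes are alike.

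The 10 Pax5+/- leukemias differed among themselves. The median SD of a member was 0.35 there, against 0.17 over all genes, and the median distance between the highest and lowest leukemia was 1.13 on the log2 scale. Leukemia 4 was lowest for 35 members and leukemia 6 for 12, and leukemia 7 was highest for 31. In leukemia 4, with a mean of 8.52, 33 members lay above all 7 preleukemic samples, against 29.4% of all genes, and Cenpa, Cdc25b and Pttg1 lay below them, against 33.7%. Its megakaryocyte mean of 11.25 was the highest of the group and its neutrophil mean of 6.14 the lowest. Leukemia 6, with a mean of 8.69, had the highest neutrophil mean, 10.82. Among the preleukemic samples, 13 and 23 were lowest for 24 and 19 members. Among samples whose mouse numbers start with the same letter, leukemia 10 lay above preleukemic samples 21, 22 and 23 for 48 members and below for Cdc25b, against 37.5% and 45.1% of all genes.

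DNA replication genes gave a reference for cells in S phase. Of 30, 21 rose in Pax5+/- leukemia (median 0.57) and 25 in WT (median 0.88), and 0 fell, where 28.0% and 17.9% of all genes rose. With the marker component as a covariate 0 were called in either genotype, against 17.3% of all genes in Pax5+/- mice and 11.0% in WT. Tyms, thymidylate synthase, rose 3.21-fold and Pole, a replicative polymerase, 2.34-fold in Pax5+/- mice. The replication mean per sample overlapped between the stages, at 8.52 to 9.11 before and 8.74 to 9.66 in Pax5+/- leukemia, where the mitotic mean did not. The overlap came from leukemia 4 alone, at 8.74. The other Pax5+/- leukemias, at 9.21 to 9.66, lay above every Pax5+/- preleukemic sample. In leukemia 7, whose mitotic mean was the highest, the replication mean was 9.21, second lowest of the 10. In sample 20 the replication mean was 9.1, below all 3 WT leukemias (9.37 to 9.56), while its mitotic mean was 9.35, between those of leukemias 14 and 15.

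**Figure D4:**
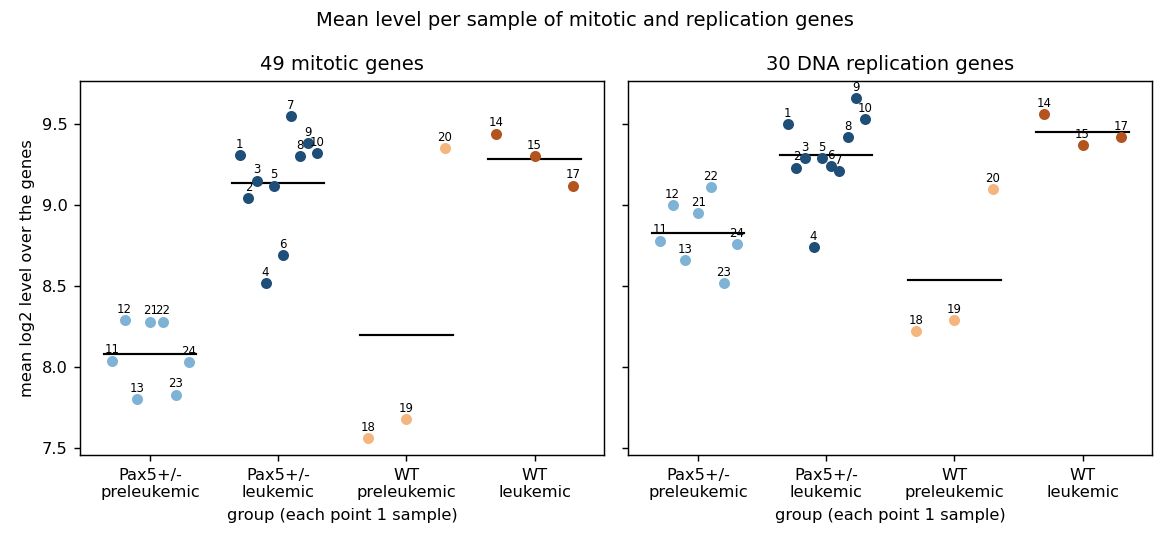
Mean log2 level per sample over the 49 mitotic genes (left) and over 30 DNA replication genes (right) by group, with sample numbers and a line at the group mean. The mitotic mean separates the Pax5+/- stages (7.8 to 8.29 against 8.52 to 9.55), and the replication mean overlaps through leukemia 4 alone (8.74). WT preleukemic sample 20 lies far above samples 18 and 19 on both.

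Other genes of mitosis, from 8 lists of 121 tested genes beside the 49, moved less uniformly. In Pax5+/- leukemia 77 rose and 15 fell (median 0.45), where 28.0% of all genes rose and 36.5% fell. In WT 66 rose and 5 fell (median 0.59), where 17.9% rose and 19.3% fell. The marker component as a covariate lowered the calls from 92 to 12 in Pax5+/- mice and from 71 to 5 in WT. Those fits called 17.3% and 11.0% of all genes. In WT 35 of the 121 were called without sample 18 or without sample 19, where 24.6% and 24.4% of all genes were called. In the WT samples alone 27 of the 121 were called, against 22.8% of all genes. Spindle and centrosome genes rose in 21 of 24 cases and fell in 0, among them Haus1 (2.62-fold) and Haus4 (1.71-fold) of augmin, which branches spindle microtubules. Of 14 further outer kinetochore genes 10 rose and 0 fell, with Zwilch up 2.81-fold and Dsn1 2.04-fold. Of 17 inner kinetochore genes 12 rose, led by Cenpt (1.77-fold) and by Oip5 (2.81-fold), whose product helps to load CENP-A, and Cenpq fell 1.53-fold. The 3 genes of condensin II rose 1.28-fold to 2.01-fold.

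The control and cohesin genes went both ways. Of 17 genes that control entry, 12 rose, including Bora (3.13-fold), which helps Aurora A activate PLK1, and Mastl (3.46-fold), whose kinase restrains the phosphatase PP2A. The 4 that fell were Ppp2r2d (1.86-fold) and Ppp2r2a (1.21-fold), PP2A subunits of the B55 kind, with Ppp1cc (1.18-fold) and Ensa (1.12-fold). Of 18 genes of the anaphase-promoting complex and its regulators 10 rose, with Trip13 at 2.63-fold and Ube2c at 2.56-fold, and Anapc7 and Anapc10 fell 1.22-fold and 1.26-fold. In cohesin 5 of 14 rose (35.7%, against 28.0% of all genes) and 3 fell (21.4%, against 36.5%). Wapl, which releases cohesin, rose 3.67-fold, and the loader gene Nipbl, Esco1 and Stag2 fell 2.31-fold, 1.78-fold and 1.17-fold. Wapl, Nipbl, Esco1 and Stag2 passed in the same direction in WT, where Wapl rose 3.63-fold and Nipbl fell 2.86-fold. Of 14 transcription regulators of these genes 4 rose (28.6%) and 5 fell (35.7%), close to the shares over all genes (28.0% and 36.5%). Tfdp1 rose 2.38-fold. The 5 that fell were Lin37 and Lin52 of the complex that binds the CHR, by 1.32-fold and 1.4-fold, and the NF-Y genes Nfya, Nfyb and Nfyc, by 1.16-fold to 1.22-fold. In WT, Lin37 fell and the other 4 did not pass. In the genotype comparison before leukemia 1 of the 121 passed (0.826%), near the 0.624% of all genes. It was Gtse1, a G2 and S phase protein, 2.31-fold higher in Pax5+/- cells (adjusted p = 0.0217), and it did not pass without sample 18 (adjusted p = 0.128) or sample 19 (adjusted p = 0.236).

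The differences were also set beside the CHR letters, as a description. In Pax5+/- leukemia the median difference was 1.28 over 32 measured members with the letters, from -2.34 (Cdc25b) to 2.0 (Kif2c). It was 1.06 over 8 without them, from 0.0 (Pttg1) to 1.31 (Cenpe), the others being Birc5, Kif18a, Mad2l1, Ncaph, Nek2 and Nuf2.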

How the data were processed

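Total RNA was extracted with Trizol, labelled with biotin and run on arrays of 1 colour, per the labels' protocols. The authors deposited probe set values on a log2 scale. Transcriptome Analysis Console is named per the submitters' processing notes, and its version, background correction and normalization are not given in the sources used here. Array medians were 6.06 to 6.2. The number of arrays limits the precision.

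Of 28944 probe sets, 21789 carried 1 symbol, and 1621 with several and 5534 with none were left out. The probe set of highest mean represented each symbol. A gene was tested if above its array's 30th percentile on at least 3 arrays, which removed 4396. Groups followed the titles. A single limma fit (version 3.58.1, R 4.3.3) held all 4 groups and used lmFit, contrasts and eBayes with an intensity trend. Tests were two-sided with Benjamini-Hochberg adjustment and a threshold of 0.05. SE values are on the log2 scale.

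The genes, pathway lists and marker lists were chosen with earlier results of these data known. Values per sample were given for 11 measured genes picked for their role, the 5 largest and 5 smallest differences in the Pax5+/- stage comparison, members that fell or did not pass, and the 3 smallest p values of each other comparison. From a list, up to 3 genes of smallest p and those against its direction were named, and all other examples were chosen after their values were seen.

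On simulated data of 15542 genes, changes of 1 on the log2 scale were recovered in 95.5% (Pax5+/- stages), 83.6% (WT stages), 92.5% and 85.1% (genotypes before and in leukemia) and 80.6% (interaction). The simulation changed genes drawn at random, with independent noise of the same SD in all 4 groups. The members had a median SD of 1.02 in WT preleukemic samples, against 0.15 over all genes. The shares describe genes drawn at random and do not give the recovery for the members. In all, 37 alternatives were tried. Figures used matplotlib 3.10.9.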

Additional observations from a re-analysis of the deposited data

Results flagged for a closer look

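Among 100 groups of 4 to 10 samples examined for a sample far from the others, 3 had one by Dixon's criterion, where chance gives about 1 in 20. Cdc25b was 9.53 in Pax5+/- leukemia 7, the highest of the 10. Kif23 was 7.84 in Pax5+/- preleukemic sample 13 and Ncapd2 was 8.17 in Pax5+/- preleukemic sample 23, each the lowest of the 7. WT groups of 3 samples could not be examined this way, so sample 20 was not among them.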

How the results depend on the processing

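The number of members called between the Pax5+/- stages stayed within 1.5 times its value in the 37 alternatives except 1: with the marker component as a covariate 1 member and 12 of the other mitotic genes were called, and Top2a, Ccna2 and Smc2 turned to -0.18, -0.03 and -0.13. Leaving out 1 sample gave 45 to 48 members called, 88 to 96 other genes and 34 to 44 members without overlap. Pttg1, at 0.00, turned to -0.03 with array weights, the mouse-letter block or without leukemias 2, 6 and 7, to -0.08 with quantile normalization and -0.06 with median centring, and ran from -0.09 to 0.11 with 1 sample left out. In WT, members called were 3 with only the 2 groups, 26 with Xist and 0 with the marker component; other mitotic genes called were 27 with only the 2 groups and 5 with the marker component. Leaving out 1 sample gave 10 to 47 members, 35 to 84 other genes and 8 to 48 members without overlap. For the genotypes before leukemia, array weights called 2 members and 8 other genes, against 2.86% of all genes, and moved Ncapd2 to 0.01 and Cenpf to 0.1. Leaving out samples 15, 17 and 20, chosen after the data were seen, moved Cenpf to 0.17 and turned the Ndc80 interaction to -0.18. Leaving out 1 sample gave 0 to 2 members and 0 to 4 other genes, against 0.257% to 0.881% of all genes. Cenpf then ran from -0.83 to 0.17. The genotypes in leukemia and the interaction had 0 members called in every setting run. No paired analysis was possible because replicate numbers are unique to each sample; the mouse-letter block had a correlation of -0.0441. Over all settings 42 values of single genes between the Pax5+/- stages and 236 between the WT stages kept their sign but no longer passed. Newly passed were 14 and 17. The 42 leave out Top2a and Ccna2, which turned negative and did not pass with the marker component as a covariate (limma, adjusted p = 0.855 and 0.977). That fit called 0 members higher between the Pax5+/- stages, against 44 in the main fit. The causes were not tested.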
